A study of Mus musculus with 6 samples.

Results

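Chromatin accessibility was examined at 34 integrin and adhesion receptor genes in lung group 2 innate lymphoid cells (ILC2s) of the mouse. The set held 13 integrin alpha chains, 7 integrin beta chains, 7 adhesion receptors of the immunoglobulin family, 4 selectins and selectin ligands, and 3 further receptors for matrix or for epithelial contact. An accessible region was given to the protein-coding gene it overlapped, or otherwise to the gene with the nearest end within 100 kb. By this rule 164 of the 57203 deposited regions belonged to 33 of the 34 genes, and Jaml, an adhesion molecule of leukocyte junctions, received none. Of these, 161 regions of 32 genes passed the filter on low counts. The nearest gene need not be the gene on which a region acts.

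The assay was ATAC-seq, which maps open DNA by where the Tn5 transposase can insert its adapters. All cells were sorted from lung as Lin-CD25+ST2+ cells of wild-type mice, female unless otherwise stated, and the sources used here give no ages of the mice. Naive ILC2s came from mice given PBS over 3 days, and effector ILC2s from mice given the protease allergen papain at 30 µg per day over 3 days. Memory ILC2s came from mice that received intranasal papain at that dose over 3 days and then rested for 2 months. Each group had 2 libraries, each a pool of cells from 2 to 4 mice, so single animals cannot be told apart. In such pools, opening of a region in more cells and wider opening in each cell cannot be told apart.

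Integrins are pairs of one alpha and one beta chain that bind matrix proteins or receptors on other cells, and their affinity is switched from inside the cell by adaptors such as talin and kindlin. Leukocytes use selectins and their sugar-bearing ligands to roll on vessel walls, and integrins with immunoglobulin family partners to arrest there. ILC2s are tissue-resident lymphocytes that respond to the alarmin IL-33 through its receptor ST2, so adhesion to lung matrix and epithelium forms part of their setting.

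Start sequences are shown for Itgb1, Cd44 and Itga3, from RefSeq (GRCm38.p6, the mm10 build). These genes ranked 1, 2 and 4 by the smallest adjusted p of effector against naive cells, in the test given below. Itgb2 ranked 3 and had no start sequence. A second Itga3 start window (chr11:95069199-95069448), which holds a match to the RUNX factor motif, is not shown. Each sequence is the 250 bases before the annotated start, read 5′ to 3′ on the strand of the gene. Capitals mark a match to the GATA factor motif in Cd44 and a match to the ETS factor motif in Itga3. The positions are chr8:128685404-128685653 on the plus strand for Itgb1, chr2:102901666-102901915 on the minus strand for Cd44 and chr11:95076715-95076964 on the minus strand for Itga3.
Itgb1: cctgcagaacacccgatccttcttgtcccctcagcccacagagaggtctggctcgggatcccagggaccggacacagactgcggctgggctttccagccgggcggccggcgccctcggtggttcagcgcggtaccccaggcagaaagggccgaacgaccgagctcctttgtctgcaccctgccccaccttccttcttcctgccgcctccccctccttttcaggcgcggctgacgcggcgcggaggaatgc
Cd44: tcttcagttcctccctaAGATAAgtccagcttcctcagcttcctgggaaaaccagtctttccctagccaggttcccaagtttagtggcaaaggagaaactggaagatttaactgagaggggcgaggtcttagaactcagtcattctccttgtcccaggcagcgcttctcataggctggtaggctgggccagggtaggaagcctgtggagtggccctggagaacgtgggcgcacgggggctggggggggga
Itga3: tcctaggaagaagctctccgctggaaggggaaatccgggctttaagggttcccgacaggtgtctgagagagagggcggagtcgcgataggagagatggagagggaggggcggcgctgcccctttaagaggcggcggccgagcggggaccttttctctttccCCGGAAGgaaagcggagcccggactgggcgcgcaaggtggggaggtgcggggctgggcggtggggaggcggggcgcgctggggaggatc

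The Itgb1 and Itga3 sequences were rich in G and C, at 68.0% and 67.6%, with 21 and 22 CpG dinucleotides. The Cd44 sequence had 56.4% and 5 CpG, beside medians of 55.6% and 10 over all 21263 start windows of this length. Both strands were searched for 4 motifs of factor families known in lymphocytes. The motif of AP-1 factors was spelled TGANTCA and found in 6.13% of all windows, and that of the GATA family was spelled AGATAA and found in 8.81%. For ETS factors the letters CCGGAAG were found in 8.98% of the windows, and for RUNX factors the letters TGTGGTT in 3.82%. Of 22 windows found for 20 of the 34 genes, 2 held the AP-1 motif and 1 held each of the others. Itgb1 held none of the 4. A motif match is a description of the letters and not a binding site.

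Each library held between 11995095 and 20591102 counts over the regions, and levels are given as CPM, the count scaled to a common library size by TMM. All 11 ILC2 marker genes on the list used, among them Gata3, Il1rl1 (ST2) and Il2ra (CD25), had accessible regions. Their summed level was 3780 to 4080 CPM in naive, 3840 to 4540 in effector and 3890 to 4260 in memory libraries. Regions were also given to 6 of 10 endothelial markers, at 122 to 134, 107 to 111 and 101 to 114 CPM in the same order, and none to Tek, Tie1, Emcn or Clec14a. For lung epithelium 7 of 10 markers had a region, at 80.4 to 91.0, 93.9 to 97.2 and 65.1 to 75.0 CPM, with none at Sftpc, Ager or Cldn18. Myeloid markers had regions at 6 of 10 genes, at 161 to 175, 159 to 179 and 159 to 173 CPM, with none at Csf1r, Lyz2, Adgre1 or Ly6g. T cell markers had regions at 6 of 8 genes, at 149 to 153, 147 to 165 and 142 to 162 CPM, with none at Cd8a or Cd8b1. Fibroblast markers had regions at 6 of 8 genes, at 98.5 to 102 CPM, 97.4 to 99.2 and 81.1 to 95.2, with none at Col3a1 or Lum. These sums cover every region assigned within 100 kb. There were 162 such regions for ILC2, 18 for endothelial, 14 for epithelial, 13 for myeloid, 16 for T cell and 20 for fibroblast markers. The sums grow with the number of regions, so they do not measure the share of each cell type. Over regions at or within 1 kb of gene ends alone, naive libraries summed to 432 to 462 CPM for ILC2 and 113 to 117 for T cell markers. Endothelial markers summed to 24.3 to 29.1 there, epithelial to 61.7 to 72.0, myeloid to 50.4 to 70.0 and fibroblast to 5.29 to 7.53. The gene end sums covered 17 regions for ILC2, 7 for T cell, 4 for endothelial, 7 for epithelial, 4 for myeloid and 3 for fibroblast markers. The part of cells other than ILC2s in the results below was not tested.

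After 3 days of papain, more regions of the adhesion genes opened than closed. In effector against naive cells, 23 of the 161 tested regions rose (14.3%) and 5 fell (3.11%), by edgeR's quasi-likelihood test with Benjamini-Hochberg adjustment over every tested region and a threshold of 0.05. Over all 56007 tested regions 11.5% rose and 4.98% fell, so the share that rose at adhesion genes was near that of the genome at large. The median log2 fold change was 0.17 over the adhesion gene regions and 0.00 over all regions. The gains lay at 12 genes and ranged from 0.47 to 3.10 on the log2 scale, with a median of 1.92. The losses lay at 4 genes and ranged from −1.14 to −0.38, and Itgb3 had regions of both kinds. Without effector replicate 1 the counts were 9 higher and 0 lower, beside 4.48% and 0.667% of all regions. They were 1 lower without naive replicate 1, and 15 higher and 2 lower without naive replicate 2. With the replicate number as a block they were 37 higher and 10 lower, beside 15.6% and 11.7% of all regions. For the gene lists below, counts without effector replicate 1 or with the block stand beside the shares of those fits. They do not stand beside the shares of the main fit. DESeq2 counts for effector against naive stand beside 8.79% higher and 4.57% lower of all regions.

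**Figure D1:**
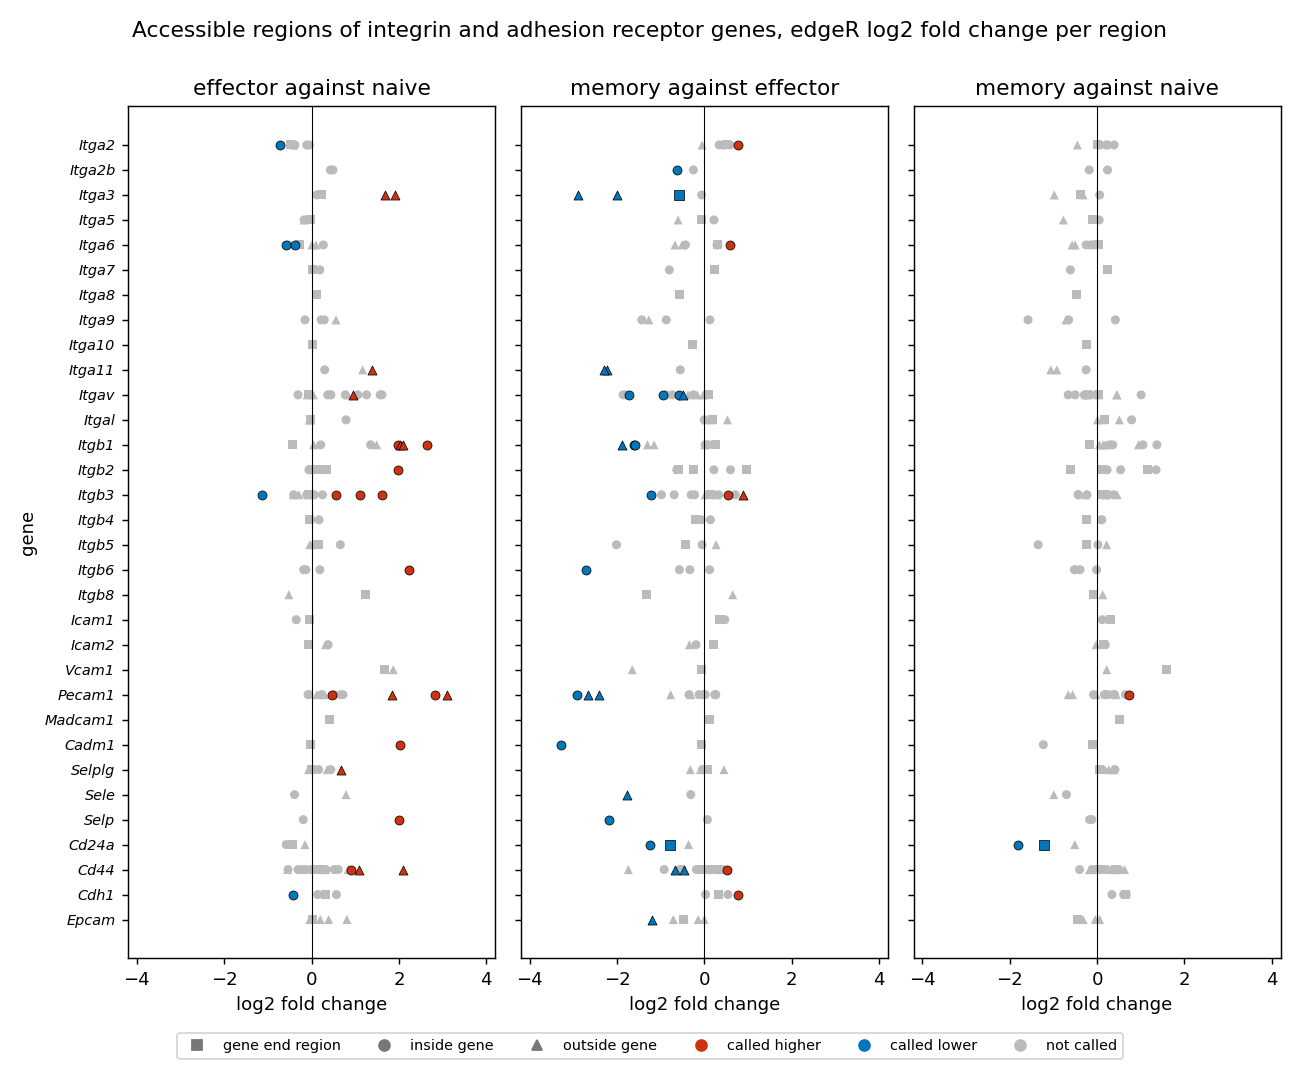
The 3 panels plot the edgeR log2 fold change of each tested region of each gene for effector against naive, memory against effector and memory against naive libraries, with red and blue for regions called higher and lower, gray for regions not called, and the marker shape for the place of the region. Most points are gray, and among the called ones 23 are red and 5 blue in the first panel, 6 red and 26 blue in the second, and 1 red and 2 blue in the third.

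None of the called regions of effector against naive cells lay at a gene end. Of 28 regions that overlapped or lay within 1 kb of an end of an adhesion gene, 0 rose and 0 fell in edgeR's quasi-likelihood test. DESeq2 also called 0, and 4 of them had an unadjusted p under 0.05. Counts at an unadjusted p, here and below, have no share of all regions beside them. They are not calls and show no excess at these genes. Over all gene end regions 2.86% rose and 8.04% fell. Of the 133 regions elsewhere, 23 rose (17.3%) and 5 fell (3.76%), beside 14.2% and 3.73% of all such regions. The replicate block called 3 gene end regions higher and 2 lower. Regions that rose had low naive levels, from 0.358 to 28.9 CPM with a median of 1.67, whereas the 5 that fell ranged from 9.28 to 76.8 with a median of 39.2. The median width was 915 bp for regions that rose and 1198 bp for regions not called.

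Among the alpha chains, 4 of 53 tested regions rose (7.55%) and 3 fell (5.66%) in effector against naive cells, beside 11.5% and 4.98% of all regions, and with the replicate block 9 rose and 5 fell. Without effector replicate 1, 3 rose and 0 fell. Itga3 encodes a laminin-binding chain. The region at chr11:95085904-95086729, 9.2 kb upstream of its start, measured 3.60 and 2.88 CPM in naive, 13.3 and 11.1 in effector and 2.03 and 1.33 in memory libraries. Both effector libraries exceeded all 4 others, and the naive and memory ranges did not overlap. The log2 fold change of effector against naive was 1.92 ± 0.30 (SE, edgeR adjusted p = 0.000367). A second Itga3 region 5.8 kb upstream (chr11:95082515-95083800) read 12.1 and 10.5, 37.1 and 35.1, and 12.5 and 6.01 CPM in naive, effector and memory libraries. Its gain was 1.68 ± 0.26 in log2 (edgeR adjusted p = 0.000529).

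Itgav encodes the chain that pairs with several beta chains and binds ligands bearing an RGD motif. Its region at chr2:83694888-83696213, 28.2 kb upstream of the start, read 29.6 and 28.1 CPM in naive, 61.8 and 49.0 in effector and 37.0 and 41.7 in memory libraries. The 3 groups did not overlap, with memory between the other groups. Effector cells were higher than naive cells by 0.94 ± 0.15 (edgeR adjusted p = 0.000453). The most covered Itgav region, 22.9 kb upstream (chr2:83699517), stayed level, at group means of 149, 152 and 150 CPM. Itga11, a collagen-binding chain, had a region 36.9 kb upstream (chr9:62639564-62640924) at 3.04 and 2.76 CPM in naive, 8.89 and 6.19 in effector and 1.15 and 1.82 in memory libraries. No library overlapped another group there, and the change from naive to effector was 1.38 ± 0.34 (edgeR adjusted p = 0.0102). Leaving out naive replicate 2 (adjusted p = 0.0628) or effector replicate 1 (0.16) ended that call.

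The alpha chain regions that fell belonged to Itga2, a collagen-binding chain, and Itga6, a laminin-binding chain. A region inside Itga2 (chr13:114894384-114896796) read 37.9 and 40.5 CPM in naive, 19.1 and 28.2 in effector and 42.1 and 39.4 in memory libraries. Both effector libraries lay below all others, and naive and memory libraries overlapped. The log2 fold change of effector against naive was −0.73 ± 0.17 (edgeR adjusted p = 0.00767), a call lost without effector replicate 1 (0.136). A region inside Itga6 (chr2:71837183-71838429) read 30.7 and 31.3 CPM in naive, 19.7 and 21.7 in effector and 30.6 and 31.6 in memory libraries, with the same order of groups. Its log2 fold change was −0.58 ± 0.15 (edgeR adjusted p = 0.0148), and 5 of 14 other settings did not call it, with adjusted p up to 0.128. No region of Itga5, Itga7, Itga8, Itga9, Itga10 or Itgal was called in any of the 3 comparisons, and the single region of Itgad, with 2, 21 and 4 counts summed over the naive, effector and memory libraries, was not tested.

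Among the beta chains, 9 of 42 tested regions rose (21.4%) and 1 fell (2.38%), beside 11.5% and 4.98% of all regions. Without effector replicate 1 the counts were 2 and 0. The replicate block gave 11 and 4, beside 15.6% and 11.7% of all regions. Itgb1 encodes the beta chain shared by the largest number of alpha chains. The region inside Itgb1 at chr8:128702157-128703856, 16.5 kb past the start, read 1.84 and 1.18 CPM in naive, 10.3 and 8.36 in effector and 2.47 and 3.59 in memory libraries. The groups did not overlap, and effector libraries stood far above the others. The log2 fold change of effector against naive was 2.65 ± 0.35 (edgeR adjusted p = 0.000105). The other 3 Itgb1 regions that rose lay 41.8 and 37.2 kb upstream and 8.7 kb past the start, and rose by 1.98 to 2.10 on the log2 scale. For the farthest one the counts were 16 in naive and 73 in effector libraries, a ratio of scaled counts of 4.10 with an exact 95% counting interval of 2.36 to 7.54.

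Itgb2 encodes the leukocyte beta chain of LFA-1 and Mac-1. The region inside it at chr10:77556344-77557403 read 2.00 and 2.94 CPM in naive, 9.87 and 9.97 in effector and 5.11 and 7.53 in memory libraries. The 3 groups did not overlap, and memory lay between naive and effector. The gain from naive to effector was 1.98 ± 0.31 (edgeR adjusted p = 0.000353). The most covered Itgb2 region, at the gene end (chr10:77529876), gave 0.35 in the same comparison (edgeR adjusted p = 0.0766), which the replicate block called at 0.00864. Itgb6 encodes a partner of the alpha v chain known for activating TGF-beta on epithelium. The Itgb6 region at chr2:60699940-60701181 read 1.52 and 0.470 CPM in naive, 5.13 and 3.84 in effector and 0.793 and 0.591 in memory libraries, so that both effector libraries were above all others. It rose by 2.22 ± 0.50 (edgeR adjusted p = 0.00536), and leaving out naive replicate 2 (0.0663) or effector replicate 1 (0.0853) ended that call.

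Itgb3, the beta chain of the fibrinogen and vitronectin receptors, had 14 regions, of which 3 rose and 1 fell. Its gain with the smallest adjusted p (chr11:104619495-104619858) read 2.16 and 1.18 CPM in naive, 6.56 and 3.49 in effector and 2.03 and 2.22 in memory libraries. The region that fell (chr11:104663929-104664297) read 8.81 and 9.75, 2.47 and 5.90, and 6.08 and 7.63 CPM in the same order. In both, the effector libraries lay outside the range of the other 4, with the pair of effector libraries spread widely. The log2 fold changes were 1.61 ± 0.42 (edgeR adjusted p = 0.0146) and −1.14 ± 0.33 (edgeR adjusted p = 0.0275). The gain was not called without naive replicate 2 (0.13) or effector replicate 1 (0.246), and the loss was not called in 4 of 14 other settings, with adjusted p up to 0.272. Memory against effector gave 0.71 ± 0.34 at the region that fell (edgeR adjusted p = 0.145), called with the replicate block (0.0332). Itgb4, Itgb5 and Itgb8 had no called region in any comparison.

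Among the immunoglobulin family genes 5 of 22 regions rose (22.7%) and 0 fell, beside 11.5% and 4.98% of all regions, and 3 rose without effector replicate 1. DESeq2 called 3 higher and 0 lower, and edgeR gave 7 regions an unadjusted p under 0.05 in either direction. Of the 5, 4 belonged to Pecam1, which encodes CD31, a receptor of endothelial and leukocyte junctions. The Pecam1 region at chr11:106727306-106727861, 12.0 kb outside the gene, read 0.480 and 0.235 CPM in naive, 3.05 and 2.98 in effector and 0.441 and 0.492 in memory libraries. Naive and memory libraries overlapped, and both effector libraries lay far above them. The log2 fold change was 3.10 ± 0.56 (edgeR adjusted p = 0.00125). A region inside Pecam1 (chr11:106707822-106708530) read 0.400 and 0.411 CPM in naive and 3.18 and 2.69 in effector libraries, a ratio of scaled counts of 7.19 with a 95% counting interval of 3.93 to 14.4.

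Cadm1 encodes a cell contact molecule that also binds CRTAM on lymphocytes. Its region inside the gene (chr9:47733753-47734668) read 0.640 and 0.470 CPM in naive, 1.95 and 2.58 in effector and 0.353 and 0.148 in memory libraries, and no group overlapped another. The scaled ratio of effector to naive was 4.21 (95% counting interval 2.43 to 7.74) and the log2 fold change 2.03 ± 0.58 (edgeR adjusted p = 0.0229), which 6 of 14 other settings did not call, with adjusted p up to 0.179. Vcam1, the partner of alpha 4 integrins, was among the least covered genes. The Vcam1 gene end region (chr3:116128883) held 18, 67 and 64 counts in naive, effector and memory libraries. Effector against naive gave a log2 fold change of 1.67 with an edgeR adjusted p of 0.0526, and 0.0196 with the replicate block. The integrin ligands Icam1 and Icam2 and the gut addressin Madcam1 had no called region in any comparison, although the replicate block called the Icam1 gene end region higher in memory than in effector cells (adjusted p = 0.0131).

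In the selectin group 2 of 13 regions rose (15.4%) and 0 fell, as also in DESeq2, beside 11.5% and 4.98% of all regions. An unadjusted p under 0.05 was found for 3, and without effector replicate 1 the count that rose was 0. The replicate block gave 3. Selplg, which encodes the selectin ligand PSGL-1, had a region 2.8 kb outside the gene (chr5:113813604-113814964) at 16.7 and 15.3 CPM in naive, 27.3 and 23.5 in effector and 21.6 and 19.3 in memory libraries. Its groups did not overlap, and it rose by 0.67 ± 0.18 (edgeR adjusted p = 0.0142), and leaving out naive replicate 1 (0.0576), naive replicate 2 (0.0986) or effector replicate 1 (0.15) ended that call. A region inside Selp, the gene of P-selectin (chr1:164123622-164124294), read 0.961 and 0.881 CPM in naive, 4.74 and 2.75 in effector and 1.06 and 0.640 in memory libraries. Effector libraries were the highest there, naive and memory libraries overlapped, and the change was 2.01 ± 0.47 (edgeR adjusted p = 0.00729, and 0.162 without effector replicate 1).

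Cd44, the hyaluronan receptor, had more regions than any other gene of the set, 22 in all, of which 3 rose. The region 54.8 kb upstream of its start (chr2:102956465-102957686) read 19.1 and 18.7 CPM in naive, 44.5 and 35.7 in effector and 23.5 and 26.7 in memory libraries. The groups did not overlap, and memory lay between naive and effector. The gain was 1.09 ± 0.16 (edgeR adjusted p = 0.000301). Cdh1 encodes E-cadherin, a ligand of the integrin alpha E beta 7 and of KLRG1. A region inside Cdh1 (chr8:106642565-106643924) read 75.7 and 78.1 CPM in naive, 53.4 and 60.3 in effector and 94.6 and 99.4 in memory libraries, so that the order was effector, naive, memory with no overlap. The loss from naive to effector was −0.43 ± 0.13 (edgeR adjusted p = 0.0247). That call was lost under 6 of 14 other settings, with adjusted p up to 0.272. Over Cd44, Cdh1 and Epcam together, 3 of 31 regions rose (9.68%) and 1 fell (3.23%), beside the same 11.5% and 4.98%. These were 1 and 0 without effector replicate 1, and 7 and 1 with the replicate block.

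**Figure D2:**
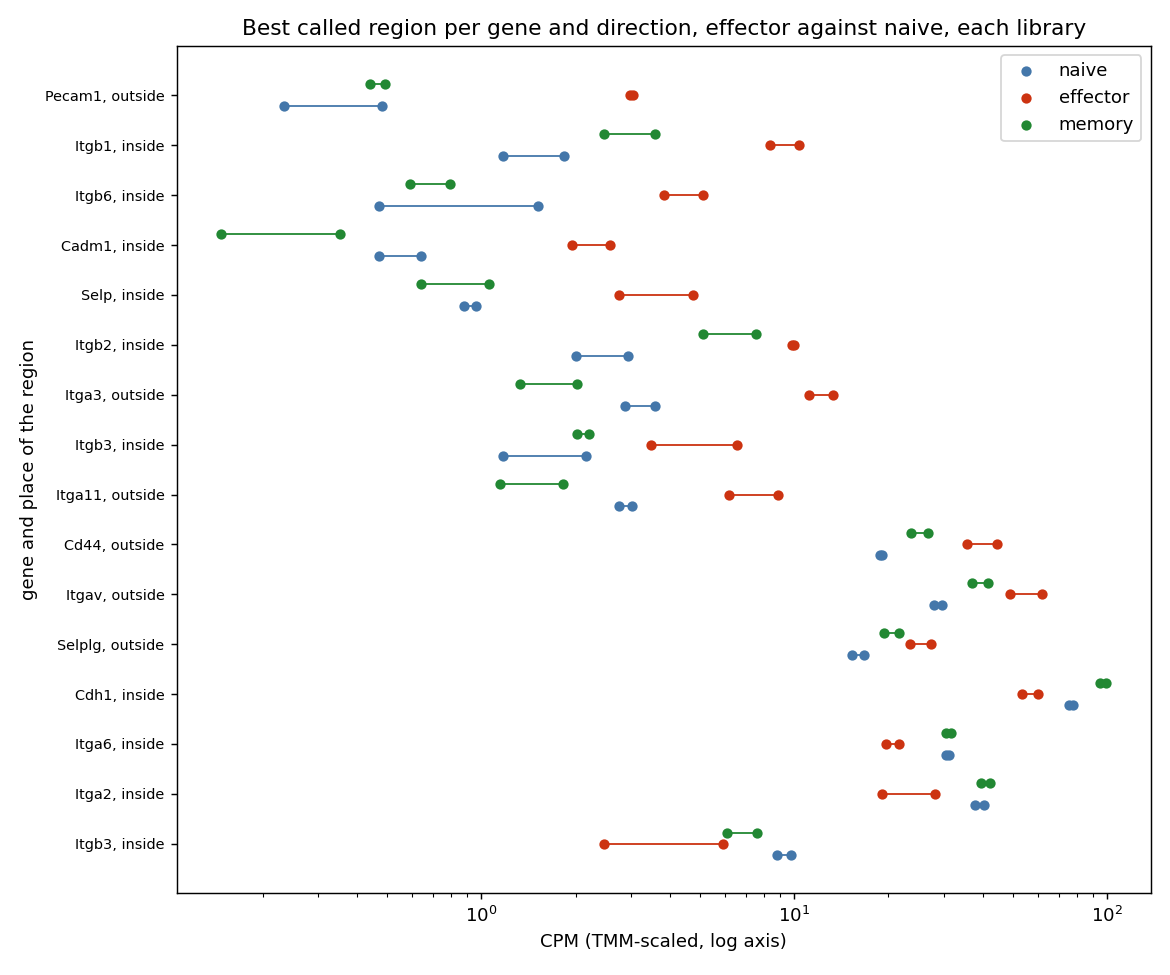
The plot gives the TMM-scaled CPM on a log axis of every library for the called region of each gene and direction with the smallest adjusted p in effector against naive, with naive in blue, effector in red and memory in green and a line joining the 2 libraries of a group. At Itgb1 the effector points lie at 10.3 and 8.36 CPM and the naive points at 1.84 and 1.18, and at Cdh1 and Itga2 the effector points lie to the left of the others.

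Regions overlapped the RefSeq start windows of 11 genes, from 250 bases before to 50 after the start. None of the 11 was called by edgeR's quasi-likelihood test in effector against naive cells, and 2 had an unadjusted p under 0.05, beside 2.86% higher and 8.04% lower of all gene end regions. The Cd44 start region (chr2:102899364-102901730), which overlaps the sequence shown, read 58.1 and 60.3 CPM in naive, 74.5 and 59.3 in effector and 71.4 and 55.3 in memory libraries, and all 3 groups overlapped. The Itga3 start region (chr11:95075933-95078478) read 64.0 and 57.6, 75.6 and 65.8, and 46.9 and 47.2 CPM. Memory was lowest there, by 0.59 below effector on the log2 scale (edgeR log2 fold change −0.59 ± 0.13, adjusted p = 0.00459, and 0.0743 without effector replicate 1). With the replicate block it was also called lower in memory than in naive cells (adjusted p = 0.0469). The Itgb1 start region (chr8:128684822-128687031) read 46.7 and 29.7, 31.8 and 24.8, and 36.2 and 31.0 CPM, with overlap between all groups. Its effector against naive value was −0.43 ± 0.20 (edgeR adjusted p = 0.159), which the replicate block called lower at an adjusted p of 0.016 and the fit without naive replicate 2 at 0.0217.

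**Figure D3:**
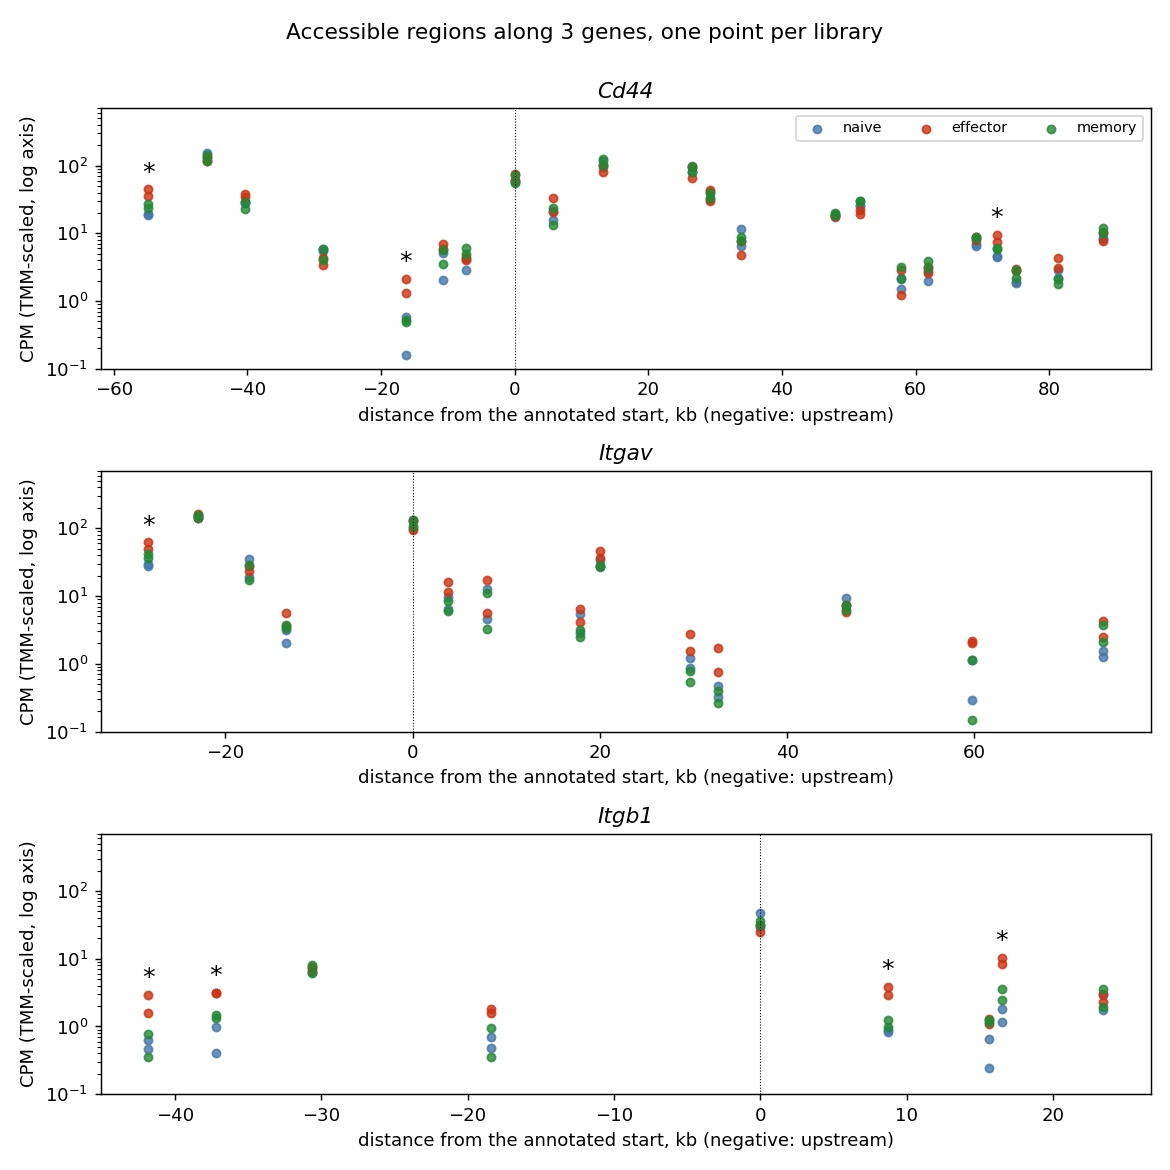
Each panel places the regions of Cd44, Itgav or Itgb1 by their distance in kb from the annotated start (x axis, negative values upstream) against TMM-scaled CPM on a log axis, with 1 point per library in the colour of its group and a star above regions called in effector against naive. Starred regions lie away from the dotted line at the start, at −54.8 kb for Cd44, −28.2 kb for Itgav and 16.5 kb for Itgb1 among others.

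Memory cells were compared with effector cells to see which regions differed after 2 months of rest. Here 6 of 161 regions were higher (3.73%) and 26 lower (16.1%) in memory, beside 7.72% and 13.6% of all tested regions, by edgeR's quasi-likelihood test. The median log2 fold change was −0.08, and −0.04 over all regions. The lower regions lay at 14 genes and ranged from −3.27 to −0.46, with a median of −1.67, and the higher ones lay at 5 genes and ranged from 0.53 to 0.88. Without effector replicate 1 the counts were 2 higher and 10 lower, beside 1.72% and 5.89% of all regions, and without memory replicate 2 the lower count was 16. With the replicate block 14 were higher and 35 lower, beside 14.9% and 18.3% of all regions. Counts of the gene lists below under these fits stand beside the shares of the same fit. For DESeq2 the shares of all regions were 7.77% higher and 10.1% lower in memory than in effector cells. This comparison uses the same effector libraries as the one with naive cells, so the values of the 2 comparisons are not independent and are set side by side for each region.

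By role, memory cells had 2 higher (3.77%) and 10 lower (18.9%) of 53 regions among alpha chains and 2 (4.76%) and 5 (11.9%) of 42 among beta chains, beside 7.72% and 13.6% of all regions. The counts were 0 and 4 of 22 in the immunoglobulin family, 0 and 4 of 13 in the selectin group and 2 and 3 of 31 among the other receptors. Without effector replicate 1 the lower counts in this order were 3, 2, 4, 1 and 0, and the higher ones 0, 1, 0, 0 and 1. The replicate block gave 5 higher and 13 lower for alpha chains, 5 and 9 for beta chains, 1 and 4, 0 and 4, and 3 and 5. The Itga3 region 9.2 kb upstream was lower by −2.90 ± 0.32 (edgeR adjusted p = 2.4e-05), and the one 5.8 kb upstream by −2.00 ± 0.26 (0.00016), beside gains of 1.92 and 1.68 from naive to effector. The region inside Cadm1 was lower by −3.27 ± 0.66 (edgeR adjusted p = 0.00228), with 75 counts in effector and 7 in memory libraries, a scaled ratio of 0.0969 (95% counting interval 0.0377 to 0.210). The Itgb6 region was lower by −2.71 ± 0.52 (edgeR adjusted p = 0.0015) and the Itga11 region by −2.29 ± 0.36 (0.000359), and both were called in all 14 other settings. The Pecam1 region 12.0 kb outside the gene was lower by −2.66 ± 0.53 (edgeR adjusted p = 0.00228). Another Pecam1 region (chr11:106716379-106717126) had the smallest adjusted p of that gene here. It was lower by −2.42 (edgeR adjusted p = 0.000414), beside a gain of 1.85 from naive to effector (0.00253). The Selp region was lower by −2.18 ± 0.48 (edgeR adjusted p = 0.00411, and 0.102 without effector replicate 1).

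Smaller differences between memory and effector cells were seen at regions of Itgb1, Cd44, Itgav and Itgb2, where memory lay between the other groups. The Itgb1 region 16.5 kb past the start was lower in memory by −1.59 ± 0.32 (edgeR adjusted p = 0.00244). At the Cd44 region 54.8 kb upstream the value was −0.67 ± 0.16 (edgeR adjusted p = 0.00758), a call lost without effector replicate 1 (0.122) or memory replicate 1 (0.0591). At the Itgav region 28.2 kb upstream it was −0.49 ± 0.15 (edgeR adjusted p = 0.0265), not called in 3 of 14 other settings, with adjusted p up to 0.286. The Itgb2 region was not called, at −0.63 ± 0.28 (edgeR adjusted p = 0.121), but was called with the replicate block (0.0376). Sele, the gene of E-selectin, and Epcam, an epithelial contact molecule, each had a region that was lower in memory, by −1.78 ± 0.59 (edgeR adjusted p = 0.0406) and −1.20 ± 0.34 (0.0172). The Sele call was lost in 6 other settings, with adjusted p up to 0.312, and the Epcam call in 5, with adjusted p up to 0.103. In effector against naive cells the Epcam region gave 0.81 ± 0.33 (edgeR adjusted p = 0.103), called with the replicate block (0.0365). Beside these the summed lung epithelial markers were 93.9 to 97.2 CPM in effector and 65.1 to 75.0 in memory libraries, and their part in the Epcam value was not tested. Itga2b, the platelet alpha chain, had a region that was lower by −0.62 ± 0.20 (edgeR adjusted p = 0.0395), not called in 4 of 14 other settings, with adjusted p up to 0.303. Effector against naive gave 0.43 ± 0.20 there (edgeR adjusted p = 0.161), called with the replicate block (0.0394). The lower Itgav region with the smallest adjusted p (chr2:83744421-83747067) gave −0.59 in memory against effector (edgeR adjusted p = 0.0181). Its log2 fold change ran from −0.83 to −0.41 over the 14 other settings. Effector against naive was not called at this Itgav region, but was with the replicate block (0.44, adjusted p = 0.00954).

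The regions that were higher in memory than in effector cells included Cdh1 and Itgb3. The Cdh1 region was higher by 0.77 ± 0.13 (edgeR adjusted p = 0.000455), in all 14 other settings as well. An Itgb3 region 4.6 kb outside the gene (chr11:104602541-104603419) read 18.6 and 20.8 CPM in naive, 14.5 and 14.9 in effector and 23.4 and 30.9 in memory libraries. Its groups did not overlap, and memory exceeded effector by 0.88 ± 0.18 (edgeR adjusted p = 0.0028), again in all 14 other settings. Effector against naive gave −0.42 ± 0.18 there (edgeR adjusted p = 0.134), called with the replicate block (0.0478). The regions inside Itga2 and Itga6 were higher in memory than in effector cells by 0.78 ± 0.17 (edgeR adjusted p = 0.00407) and 0.59 ± 0.15 (0.0117). The Itga2 call was lost without effector replicate 1 (0.0772) and the Itga6 call in 4 of 14 other settings, with adjusted p up to 0.135. A region inside Cd44 was higher by 0.53 ± 0.16 (edgeR adjusted p = 0.0235), which 6 of 14 other settings did not call, with adjusted p up to 0.233.

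Memory cells, taken after 2 months of rest, were then compared with naive cells. No group given PBS also rested for 2 months, so past papain and the time since treatment cannot be told apart here. Only 1 of the 161 regions was higher in memory (0.621%) and 2 were lower (1.24%), beside 0.248% and 0.0714% of all regions, by edgeR's quasi-likelihood test. DESeq2 called 2 higher and 2 lower, beside 0.633% and 0.18% of all regions it tested. The replicate block called 6 higher and 3 lower, beside 1.55% and 1.37% of all regions. An unadjusted p under 0.05 was found for 22 regions, with no share of all regions to set beside it. All 3 calls were lost without naive replicate 1 and without memory replicate 2, which left 0 higher and 0 lower, and without naive replicate 2 the counts were 0 higher and 1 lower.

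Both regions that were lower in memory belonged to Cd24a, which encodes a small sugar-bearing surface protein that binds P-selectin. The Cd24a gene end region (chr10:43577853-43580455) read 21.2 and 19.0 CPM in naive, 14.5 and 15.4 in effector and 11.02 and 6.50 in memory libraries. The region inside the gene (chr10:43580638-43581477) read 8.57 and 6.40, 4.61 and 5.33, and 2.47 and 1.82 CPM. These 2 regions lie next to each other, so the share called lower rests on the Cd24a locus alone. In both, naive was highest, effector lay between and memory was lowest, with no overlap of groups. Memory was lower than naive by −1.22 ± 0.23 (edgeR adjusted p = 0.0305) and −1.82 ± 0.33 (0.0213), and lower than effector by −0.79 ± 0.23 (0.023) and −1.24 ± 0.33 (0.0135). Effector against naive gave −0.43 and −0.58 with edgeR adjusted p of 0.212 and 0.207. Over memory against naive, the first call was lost without naive replicate 1 (0.203), naive replicate 2 (0.0575) or memory replicate 2 (0.385), and the second without naive replicate 1 (0.202) or memory replicate 2 (0.318). Over memory against effector, the first call ended without effector replicate 1 (0.0837), effector replicate 2 (0.0917) or memory replicate 2 (0.253), and the second without effector replicate 2 (0.0741) or memory replicate 2 (0.113). Beside both regions, the summed lung epithelial markers were 80.4 to 91.0 CPM in naive, 93.9 to 97.2 in effector and 65.1 to 75.0 in memory libraries, and their part in these values was not tested.

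The region that was higher in memory lay inside Pecam1 (chr11:106687254-106689350). It read 24.9 and 26.0 CPM in naive, 33.3 and 36.9 in effector and 40.1 and 43.9 in memory libraries, in rising order with no overlap. Memory exceeded naive by 0.73 ± 0.15 (edgeR adjusted p = 0.0412) and effector exceeded naive by 0.47 ± 0.15 (0.0373). The call in memory was lost in 7 other settings, with adjusted p up to 0.374. That in effector cells was lost without each of the naive and effector libraries in turn and in DESeq2, with adjusted p up to 0.194. Beside this, the summed endothelial markers were 122 to 134 CPM in naive and 101 to 114 in memory libraries. The Itgb2 region described above was higher in memory than in naive cells by 1.35 ± 0.31, with an edgeR adjusted p of 0.0805. It was called with the replicate block (0.0047), in DESeq2 (0.0372) and without memory replicate 1 (0.0345). With the replicate block the Itgav region 28.2 kb upstream (adjusted p = 0.0387) and the Cdh1 region (0.0463) were also called higher in memory than in naive cells.

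**Figure D4:**
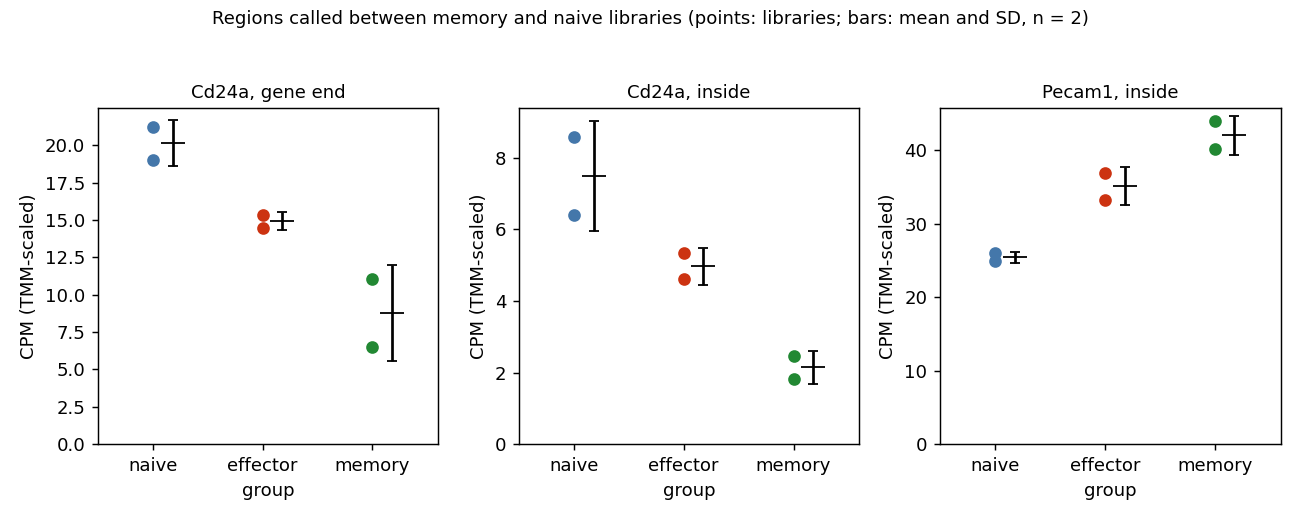
The panels plot TMM-scaled CPM from 0 for the 3 regions called between memory and naive cells, with a point for each library and a bar for the mean and SD of the 2 libraries of a group. At both Cd24a regions the points step down from naive through effector to memory (21.2 and 19.0 to 11.02 and 6.50 CPM at the gene end), and at Pecam1 they step up from 24.9 and 26.0 to 40.1 and 43.9.

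Summed over all its regions, Cd44 had the highest level, at 632 and 555 CPM in naive, 660 and 544 in effector and 658 and 569 in memory libraries, with overlap of all groups. Itgav followed at 427 and 348, 491 and 384, and 422 and 361 CPM, and its groups overlapped too. The next were Itgb3 (255 and 268 CPM in naive libraries) and Selplg (214 and 200), which did not overlap in the naive libraries and overlapped in the effector libraries (268 and 252 against 261 and 219). At the low end Vcam1 had 1.20 and 0.470 CPM in naive, 2.66 and 2.69 in effector and 1.85 and 2.41 in memory libraries. These sums grow with the number and width of regions, and the order of genes carries no measure per length. The sums of Cd24a went down from 31.1 and 27.3 CPM in naive through 19.99 and 22.6 in effector to 14.3 and 9.70 in memory libraries. Those of Itga3 were 84.1 and 77.2, 132 and 118, and 67.1 and 60.02, and those of Cdh1 99.4 and 111, 92.2 and 98.8, and 138 and 145. The sums were not tested.

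Genes around the adhesion receptors in the pathway were counted in 5 further lists. Of the other integrin chains, 6 of 28 regions rose (21.4%) and 1 fell (3.57%) in effector against naive cells, beside 11.5% and 4.98% of all regions. Without effector replicate 1 the counts were 3 and 0, and the replicate block gave 8 and 3. In memory against effector cells 2 were higher and 6 lower, 1 and 3 without effector replicate 1, and 4 and 7 with the replicate block. In the main fit these 2 and 6 regions were 7.14% and 21.4% of the list, beside 7.72% and 13.6% of all regions. Itga1 encodes the collagen-binding chain of tissue-resident lymphocytes. A region 11.8 kb outside Itga1 (chr13:114945401-114946292) lay past the far end of that gene, 155.7 kb from its start. The start of the member gene Itga2 was nearer, at chr13:114932100. The region read 1.60 and 1.06 CPM in naive, and 14.3 and 7.33 in effector libraries, and both memory libraries lay within the naive range. It rose by 3.04 ± 0.39 (edgeR adjusted p = 7.93e-05) and was lower in memory than in effector cells by −3.05 ± 0.39 (7.08e-05). A region inside Itgae, the alpha E chain that binds E-cadherin, read 9.45 and 11.8, 40.6 and 25.9, and 20.1 and 21.7 CPM, and rose by 1.64 ± 0.21 (edgeR adjusted p = 8.47e-05). Memory against naive gave 0.98 ± 0.21 there (edgeR adjusted p = 0.0668), called with the replicate block (0.00228). A region of Itgb7, which pairs with alpha E and alpha 4, was higher in memory than in effector cells by 0.73 ± 0.14 (edgeR adjusted p = 0.00182). No region of this list was called in memory against naive cells by edgeR, while DESeq2 called 1 and 3 had an unadjusted p under 0.05.

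Among integrin activators and adhesion adaptors 32 of 230 regions rose (13.9%) and 3 fell (1.30%) in effector against naive cells, beside 11.5% and 4.98% of all regions, and with the replicate block 39 rose and 12 fell. Without naive replicate 1 the count that rose was 17. Ptk2, which encodes focal adhesion kinase, had a region 10.3 kb outside the gene at 1.76 and 1.29 CPM in naive, 12.5 and 8.94 in effector and 0.705 and 0.985 in memory libraries, and it rose by 2.82 ± 0.35 (edgeR adjusted p = 5.82e-05). Fyn, a Src family kinase, and Cyth1, a regulator of beta 2 integrins, rose by 2.76 ± 0.37 (edgeR adjusted p = 0.000101) and 1.87 ± 0.24 (9.67e-05). Memory against effector cells gave 14 higher (6.09%) and 36 lower (15.7%) regions, beside 7.72% and 13.6% of all regions, 26 and 47 with the replicate block and 4 and 21 without effector replicate 1. Memory against naive gave 0 and 0 by edgeR and by DESeq2, 2 and 2 with the replicate block, and 20 regions at an unadjusted p under 0.05.

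Matrix ligands had 10 of 42 regions higher (23.8%) and 0 lower in effector against naive cells, beside 11.5% and 4.98% of all regions. DESeq2 called 8 and 0, the replicate block 16 and 1, and 5 were higher without effector replicate 1, while 19 had an unadjusted p under 0.05. In memory against effector cells 0 were higher and 10 lower (23.8%), beside 7.72% and 13.6% of all regions. DESeq2 called 0 and 6 there and the replicate block 2 and 15, 20 regions had an unadjusted p under 0.05, and the lower count was 4 without memory replicate 2. The laminin-binding protein gene Nid1 had a region inside the gene that rose by 3.23 ± 0.42 (edgeR adjusted p = 7.78e-05). In memory against naive cells 3 regions were higher (7.14%, beside 0.248% of all regions), all assigned to Tnc, which encodes the matrix protein tenascin C. The one with the smallest adjusted p, 23.6 kb outside Tnc (chr4:63935185-63936228), read 14.6 and 17.7 CPM in naive, 39.3 and 32.2 in effector and 41.5 and 54.1 in memory libraries, with no overlap of groups. Memory exceeded naive by 1.56 ± 0.18 (edgeR adjusted p = 0.000965) and effector exceeded naive by 1.14 ± 0.18 (0.000337). Memory against effector gave 0.42 ± 0.17 (edgeR adjusted p = 0.0824), and 0.0188 with the replicate block.

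Genes of selectin ligand synthesis had 10 of 74 regions higher (13.5%) and 6 lower (8.11%) in effector against naive cells, beside 11.5% and 4.98% of all regions. With the replicate block these were 15 and 7, and without effector replicate 1 they were 4 and 1. In memory against effector cells 10 were higher and 16 lower, 15 and 17 with the replicate block and 3 and 5 without effector replicate 1. In the main fit, the regions higher and lower in memory than in effector cells were 13.5% and 21.6% of the list. Over all regions these shares were 7.72% and 13.6%. Memory against naive gave 0 and 0 by edgeR and by DESeq2, 1 and 1 with the replicate block, and 10 regions at an unadjusted p under 0.05. Tpst1, a tyrosine sulfotransferase, had a region inside the gene at 5.04 and 6.75 CPM in naive, 23.8 and 20.2 in effector and 5.47 and 7.14 in memory libraries, and it rose by 1.88 ± 0.24 (edgeR adjusted p = 6.36e-05). A region upstream of the sialyltransferase gene St3gal6 fell from 36.8 and 34.9 to 16.8 and 21.8 CPM, a log2 change of −0.89 ± 0.16 (edgeR adjusted p = 0.00116), and read 36.9 and 37.7 in memory libraries.

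Of the other leukocyte adhesion and homing receptors, 19 of 101 regions rose (18.8%) and 3 fell (2.97%) in effector against naive cells, beside 11.5% and 4.98% of all regions. The replicate block gave 26 and 6, and without effector replicate 1 the counts were 11 and 0. In memory against effector cells 6 were higher (5.94%) and 19 lower (18.8%), beside 7.72% and 13.6% of all regions, 12 and 25 with the replicate block and 1 and 12 without effector replicate 1. A region 63.3 kb from Cd47, an integrin-associated receptor, read 1.04 and 0.705 CPM in naive, 16.2 and 10.7 in effector and at most 1.41 in memory libraries, a rise of 3.96 ± 0.37 (edgeR adjusted p = 7.22e-06). In memory against naive cells 3 regions of this list were higher (2.97%) and 1 lower (0.990%), beside 0.248% and 0.0714% of all regions, with 7 and 1 under the replicate block and 0 and 0 left without memory replicate 2. A region 87.6 kb upstream of Alcam, the ligand of CD6, read 1.60 and 1.47 CPM in naive, 7.92 and 5.10 in effector and 7.85 and 7.53 in memory libraries. Its memory and effector libraries overlapped and both were above naive, by 2.32 ± 0.34 (edgeR adjusted p = 0.00567) and 2.08 ± 0.34 (0.00049), and 1 of 14 other settings did not call the first (adjusted p = 0.0503). A region inside Cdh17, which encodes a cadherin, exceeded naive in memory by 1.02 ± 0.19 (edgeR adjusted p = 0.0296), and one inside Cd9, a tetraspanin that associates with integrins, was lower by −0.71 ± 0.14 (0.0358). Each of these last calls was lost in 4 of 14 other settings, with adjusted p up to 0.31 and 0.365.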

How the data were processed

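ATAC-seq was run on sorted lung ILC2s in 3 groups of 2 libraries, each library a separate pool of mice per the labels' protocols. The authors deposited raw counts per region, used here as deposited. The submitters' processing notes name mm10 with the tools edgeR 3.34.0, deepTools 3.5.4, Bowtie2 2.5.3, fastp, ChIPseeker, bedtools 2.31.1 and MACS2. How regions were merged and counted, and the base at which coordinates begin (0 or 1), is not given in the sources used here. Coordinates are printed as deposited.

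Counts were tested in R 4.3.3 with edgeR 4.0.16 (filterByExpr by group, 1196 regions removed; TMM; robust quasi-likelihood fit of all 6 libraries with a term per group and 3 residual degrees of freedom; two-sided F test; Benjamini-Hochberg over 56007 regions; called under 0.05 with no minimum fold). The standard error is the log2 fold change over the square root of F. The common dispersion was 0.0283. The median over regions of the biological coefficient of variation, from the dispersion of each region, was 19%. Exact 95% counting intervals, given for groups with at most 20 counts, cover counting error only, since reads carry no molecular identifiers. Counts were also simulated for effector against naive over 55539 regions. The test called 37 of 100 regions changed 2-fold and 93 of 100 changed 4-fold, with 7 false calls. Only those regions were changed, all at the common dispersion, so these rates do not carry over to the data.

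Genes and starts came from RefSeq GRCm38.p6, whose gene table has no strand, so upstream is written only for genes with a start sequence. Replicates differed by more than sampling noise. Same-numbered libraries deviated together from their group means (r = 0.235, 0.271 and 0.188 across regions), though no label says what a number shares, so the fit with the number as a block is given beside named regions where it changed a call.

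The member genes, lists and tests were chosen with earlier results of these data known. The text names each gene's most covered region where the results turn on it, its called region with the smallest adjusted p per comparison and direction, every member region called in memory against naive, and up to 4 genes per further list. Other named regions were chosen after their values were seen. The 14 other settings per region were RLE size factors, total counts alone, TMM on the most covered 20% of regions, a loess offset (span 0.3), no filter, DESeq2 1.42.0, only the 2 groups compared, the replicate block and each library left out. Counts of regions were also made with genes within 20 kb, any overlap, and at least 2-fold changes. A platelet marker list was also measured and is not reported here.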

Additional observations from a re-analysis of the deposited data

How the results depend on the processing

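Over the named calls no direction reversed under any of the 14 settings. These settings refit the same counts from which the calls were chosen, so a kept direction is no separate support. Under every setting other than leaving out a library, 13 of 19 named adhesion gene calls of effector against naive were kept. For memory against naive 2 of 3 were kept, and for memory against effector 16 of 23. The count of adhesion gene regions higher in effector than in naive cells (23) was 37 with the replicate block and ranged from 9 to 27 with 1 library left out. The count that was lower (5) was 3 with total counts alone, 1 with TMM on the most covered regions, 2 with the loess offset, 10 with the replicate block, 1 at 2-fold or more, and 0 to 5 with 1 library left out. For memory above naive (1) it was 0 with total counts alone, TMM on the most covered regions, the loess offset, only the 2 groups compared and at 2-fold or more, 6 with the replicate block, 2 in DESeq2 and 0 to 2 with 1 library left out. For memory below naive (2) it was 0 to 2 with 1 library left out. For memory above effector (6) it was 3 with TMM on the most covered regions, 14 with the replicate block, 0 at 2-fold or more and 2 to 8 with 1 library left out, and for memory below effector (26) it was 10 to 27 with 1 library left out. The cause was not tested, except that a left-out library leaves fewer samples. TMM on the most covered regions moved the median log2 fold change of all regions from 0.00 to 0.20 in effector against naive and from −0.04 to −0.28 in memory against effector, and total counts alone to 0.09 and −0.16. With the replicate block no named call was lost. The shares of all regions moved too. Those lower in effector than in naive cells went from 4.98% to 2.74% with total counts alone and 1.32% with TMM on the most covered regions. With the loess offset the share was 3.01%, and 11.7% with the replicate block. Those higher in memory than in effector cells went from 7.72% to 1.79% with TMM on the most covered regions and 14.9% with the replicate block.

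When 1 library of a group was left out, its partner was assumed to vary like the other groups. In counts simulated for effector against naive cells at these depths, 37 of 100 regions changed 2-fold were called and 93 of 100 changed 4-fold. Only these regions were changed there, and every region had the common dispersion of 0.0283. In the data 11.5% of all regions rose and 4.98% fell, so the Benjamini-Hochberg threshold was less strict than in the simulation. These rates therefore do not carry over to the data.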
